A study of Mus musculus with 8 samples.

Results

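Loss of Snf2h was examined in the cerebellum of sedentary mice by setting mutants against controls across all expressed loci. Members were the loci of the genotype table for sedentary mice with an FPKM (a level that divides fragments by transcript length and sequencing depth) of 1 or more in at least 1 of the groups. They numbered 9297 of the 9971 loci in that table, and of 11763 loci listed in any of the 4 tables of the series. The lowest member was Foxo6, with 1.002 FPKM in its higher group and a log2 ratio of 0.73, and Slc5a11 fell just outside, with 0.999 FPKM and a log2 ratio of -0.86.

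Both groups came from C57Bl/6 mice labelled male at postnatal day 40 that had no running. Mutants carried a conditional deletion of Snf2h, with Cre driven by Nestin (labelled Snf2h cKO-Nestin, called cKO here), and the others are labelled control. Each group had 2 libraries of polyadenylated RNA, each made from a pool of 3 whole cerebella, and lane letters, whose meaning is not stated, tell those of 1 group apart. The runner groups of the same genotypes, also 2 libraries each, share no library with the sedentary groups and are read as a second comparison of genotype. Nestin is active in neural progenitors, so neurons and glia that descend from them carry the deletion, while microglia, endothelium and meninges do not share that origin.

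Snf2h, encoded by Smarca5, is the ATPase that drives several ISWI chromatin remodelers. These complexes slide and space nucleosomes, and their partner subunits decide whether the motor works at replicating chromatin, at promoters or at insulator sites. In the cerebellum, Snf2h is known for its role in the expansion of granule neuron progenitors after birth and in the maturation of Purkinje cells, and mutants have a small cerebellum.

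Each locus had 1 FPKM per group, which the authors computed over both libraries, so no spread between libraries can be given. The sources used here do not give library depth. A locus was called when its q in the authors' deposited table was below 0.05, and "rose", "fell", "higher" and "lower" below refer to called loci. The q of a named locus was 0.000167, the smallest in the authors' deposited table, unless another is given. Log2 ratios are of the cKO FPKM over the control FPKM. The table lists hardly any uncalled locus, so a gene that it does not list cannot be read as unchanged.

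Among the members, 4007 loci (43.1%) rose and 5087 (54.7%) fell in the cKO, and 97.8% were called. The changes were mostly small. The median change of a called locus was 1.43-fold, and 56.9% of called loci changed by less than 1.5-fold. Increases prevailed among the larger changes, with 961 loci (10.3%) at least 2-fold higher and 499 (5.37%) at least 2-fold lower. At 4-fold the split was 136 higher and 72 lower. The excess of large increases lay at low levels, and among loci with 5 FPKM or more in a group 369 rose and 343 fell by at least 2-fold. Centred on the median of members, the counts at 2-fold were 1457 and 300. The median log2 ratio of all members was -0.21, and where a list moved by little, its split relative to that median is given as well.

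**Figure D1:**
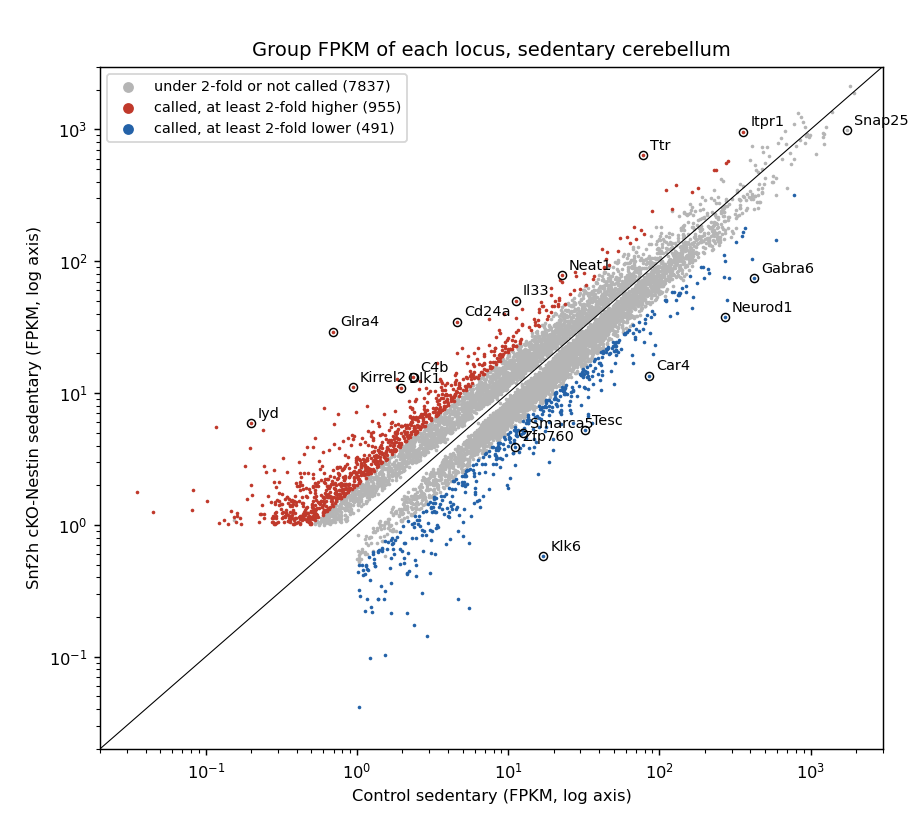
FPKM of each locus in control sedentary (horizontal) and cKO sedentary (vertical), both on log axes, with 1 point per locus. Red points were called and at least 2-fold higher in the cKO, blue points called and at least 2-fold lower, and the 14 members at 0 FPKM in a group are not drawn. Klk6 lies far below the diagonal and Glra4 far above it.

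Labels and levels of sex-linked genes did not match. Xist, the noncoding RNA of the inactive X chromosome, is normally silent in male tissue. Its level was 34.8 FPKM in control sedentary, 18.1 in cKO sedentary, 57.6 in control runner and 25.8 in cKO runner. Eif2s3y, a Y-linked gene, had 7.43 FPKM in control sedentary and 10.4 in cKO sedentary (q = 0.000765), against 0.0334 in control runner and 5.56 in cKO runner. Of the 3 Y-linked members it alone rose in sedentary mice, and 2 fell. Kdm5d went from 3.13 to 2.50 FPKM (q = 0.0205), and Uty had a log2 ratio of -0.57. Transcripts of both kinds were thus present in the control sedentary group and in both cKO groups, all labelled male, and Xist was higher in the controls of either activity. Results could not be given without the libraries concerned, since only group values were used. Of 309 members on the X chromosome, 125 (40.5%) rose and 179 (57.9%) fell, near the 43.1% and 54.7% of all members. Their median log2 ratio was -0.25, against -0.21 for all members. The part of sex in the results was not tested.

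Markers of several cell types moved with genotype too. The summed FPKM of 21 granule neuron markers was 2727 in control and 790 in cKO, and all 21 fell. Summed levels went from 3472 to 5516 FPKM for 18 Purkinje cell markers, from 106 to 160 for 12 microglia markers, from 100.3 to 716 for 16 choroid plexus markers and from 42.2 to 117 for 16 hindbrain and midbrain markers. Of these lists, 17, 12, 15 and 14 members rose, respectively, and 1, 0, 1 and 1 fell. Ttr, whose levels are given below, made up most of the choroid plexus sum in both groups. In runners 6 of the 16 choroid plexus markers rose and 1 fell. All 16 meningeal and fibroblast markers rose, from a summed 1027 to 1248 FPKM. Oligodendrocyte markers numbered 14 higher and 4 lower (2956 to 3367 FPKM) and astrocyte and Bergmann glia markers 10 and 5 (1786 to 2040). Single genes carried much of the rise in these 2 sums. Enpp2, an oligodendrocyte marker, went from 129 to 377 FPKM, and Gfap, an astrocyte marker, from 110 to 348. The runner values of Enpp2 were 326 FPKM in control and 382 in cKO. Endothelial and mural markers were mixed, with 7 higher and 5 lower and a summed level of 257 FPKM in control and 241 in cKO. No marker in these lists was at 0 FPKM in either group. In bulk tissue, fewer cells of a type and less RNA per cell cannot be told apart. The part of these cell types in the results that follow was not tested.

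Smarca5 (minus strand of chromosome 8, 80698507 to 80739497 in GENCODE M21, the GRCm38 build) was the check of the genotype. Its level was 12.6 FPKM in control sedentary and 4.94 in cKO sedentary, and 12.96 and 5.38 in the runner groups. The log2 ratio was -1.35, with a standard error of 0.14 taken as that ratio divided by the test statistic in the authors' deposited table. All 7 subunits of ISWI complexes among the members were lower. After Smarca5 came Rbbp4, a histone chaperone subunit, at 42.4 FPKM in control and 29.96 in cKO (log2 -0.50), and Baz1b, the partner in the WICH complex, at 28.4 and 21.4 (log2 -0.41). The paralogous ATPase Smarca1 had 6.498 and 5.001 FPKM (log2 -0.38, q = 0.00132). Taken relative to the median of all members, 5 of the 7 were lower and 2 higher. Baz1a, an ISWI subunit that fell short of the minimum of 1 FPKM, rose from 0.253 to 0.584 FPKM (log2 1.20). It rose in runners too. Of 8 other members within 2 Mb of Smarca5, 6 fell and 1 rose (Gab1, log2 0.56), and Zfp827 was not called.

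Among called loci at 10 FPKM or more in a group and with a single symbol, predicted genes and small RNAs left out, the steepest decrease was that of Klk6 and the steepest increase that of Glra4. Klk6, a secreted serine protease of the kallikrein family, had 17.0 FPKM in control and 0.576 in cKO sedentary, and 13.7 and 0.543 in runners. Its log2 ratio was -4.88 (standard error 0.49 by the same calculation). Glra4, a glycine receptor alpha subunit, had 0.691 FPKM in control and 29.2 in cKO sedentary, and 0.646 and 24.8 in runners. Its log2 ratio was 5.40 (standard error 0.28). In both genes the cKO groups lay on 1 side and the control groups on the other, with little difference between sedentary mice and runners.

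Other steep decreases at 10 FPKM or more were those of Car4, a membrane-bound carbonic anhydrase, from 85.3 to 13.5 FPKM, of Tesc, a calcium-binding protein, from 32.1 to 5.20, and of Cdh15, a cadherin, from 19.8 to 3.73. Crtam, an immunoglobulin-family adhesion protein, went from 33.8 to 6.90 FPKM. Among the steepest increases were Kirrel2, an immunoglobulin-family adhesion protein (0.939 to 11.04 FPKM), Cd24a, a glycosylphosphatidylinositol-anchored surface protein (4.57 to 34.7), and Tdgf1, the Nodal co-receptor Cripto (1.83 to 11.03). Each of these had the same direction in runners, as the plot of selected genes shows for several of them. Kl, which encodes Klotho, went from 1.84 to 12.8 FPKM in sedentary mice but from 8.01 to 11.7 in runners. Ttr, a choroid plexus marker, behaved alike, from 77.7 to 640 FPKM in sedentary mice and from 518 to 610 in runners. The difference between activities was not tested.

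**Figure D2:**
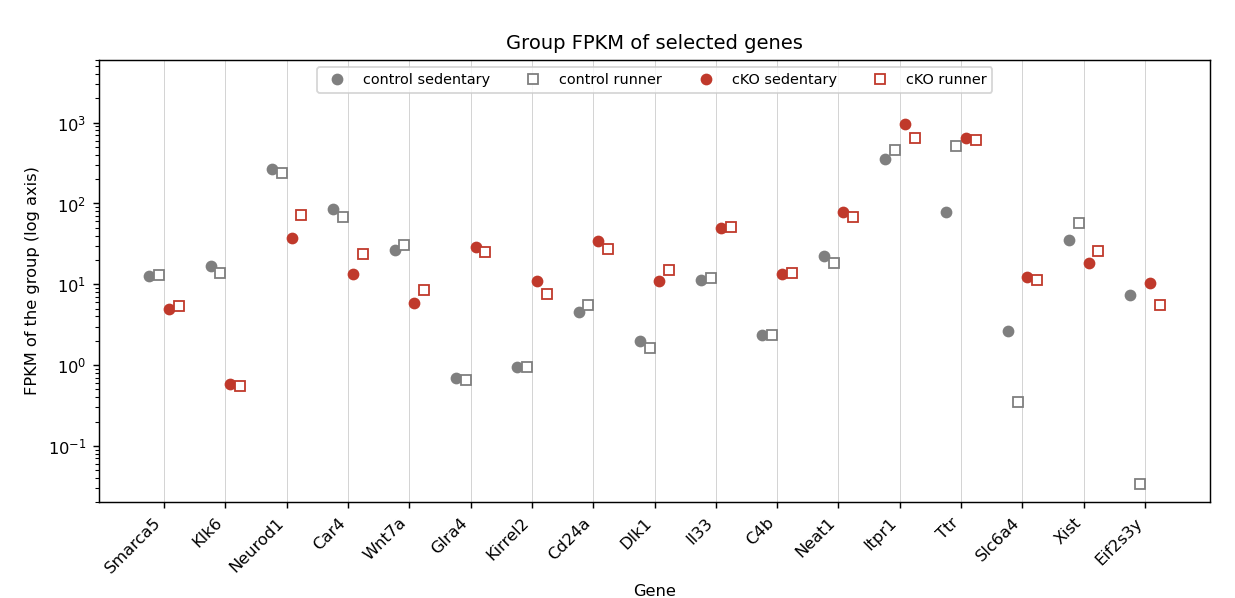
FPKM of each group for 17 genes on a log axis, with control in grey, cKO in red, sedentary groups as filled circles and runner groups as open squares. Klk6 is near 0.5 FPKM in both cKO groups, whereas Ttr is low in control sedentary alone, at 77.7 FPKM.

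By the difference in FPKM itself, the largest decrease was that of Snap25, a core protein of vesicle fusion, from 1742 to 988 FPKM. Gpm6a, a neuronal membrane glycoprotein of filopodia, went from 773 to 319 FPKM, and Nrep from 588 to 144. The largest rises included Car8, from 284 to 574 FPKM, and Atp2a2, the calcium pump of the endoplasmic reticulum, from 230.2 to 489.

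Chromatin regulators differed by family, and most changes were small. Of 14 histone demethylases, 13 fell and 1 rose (median log2 -0.43), with 12 lower relative to the median of all members. Kdm2b, which acts on lysine 36 of histone H3, had 11.8 FPKM in control and 6.48 in cKO, and the X-linked Kdm6a had 15.8 and 9.80. The exception was Jhdm1d, at 9.87 and 10.8 FPKM (log2 0.13, q = 0.0025). Among 22 histone methyltransferases 13 (59.1%) fell and 9 (40.9%) rose, near the 54.7% and 43.1% of all members. Eed, a core subunit of Polycomb repressive complex PRC2, had 12.4 FPKM in control and 6.69 in cKO, and Dot1l had 20.7 and 13.02. Setd7 was higher, at 47.9 and 66.3 FPKM. Acetyltransferase and deacetylase genes numbered 14 lower and 6 higher of 20, with the deacetylase Sirt1 at 9.35 and 5.48 FPKM. Of 30 remodeler genes outside the ISWI family, 23 fell and 7 rose, but relative to the median of all members the split was 17 to 13. Dpf3 and Actl6b, subunits of neuronal BAF complexes, had log2 ratios of -1.08 and -0.85, while Chd5, a neuronal CHD remodeler, rose from 3.62 to 9.21 FPKM. Dnmt1, the maintenance DNA methyltransferase, fell from 18.3 to 10.49 FPKM.

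Histone genes changed in either direction. Of 17 members 11 (64.7%) fell and 5 (29.4%) rose, against 54.7% and 43.1% of all members. The median log2 ratio of the 17 was -0.49, against -0.21 for all members. Among those that fell, H3f3b, an H3.3 gene, went from 249 to 142 FPKM and H2afz from 139.8 to 74.8. Hist1h4k, a replication-dependent gene, was higher, with 1.07 and 2.44 FPKM. The libraries were made from polyadenylated RNA, which captures few transcripts of replication-dependent histone genes.

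Zinc finger genes, the list with the most members, were mostly lower. The Zfp symbols belong mostly to C2H2 zinc finger factors, many of which carry a KRAB domain and repress transcription through heterochromatin. Of 400 annotated genes with a Zfp symbol, 240 were listed in a table and 203 were members. Among these, 168 (82.8%) fell and 29 (14.3%) rose, against 54.7% and 43.1% of all members. The median log2 ratio was -0.49, and the quartiles were -0.76 and -0.32. At 2-fold or more, 21 fell and 5 rose. Centring on the median of all members left 166 lower and 31 higher, and centring on loci of like transcript length left 169 and 28. In runners 138 of the 203 fell and 15 rose, against 38% and 30.5% of all members, and 132 fell in both comparisons.

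Single Zfp genes ranged widely. Zfp760 went from 11.1 to 3.91 FPKM in sedentary mice and from 8.96 to 5.49 in runners. Zfp747 went from 4.13 to 1.503 FPKM in sedentary mice and from 3.65 to 2.15 in runners. Zfp951, at 2.03 and 0.564 FPKM in sedentary mice, was not called in runners, where both values were near 1.0. Zfp658 rose, from 4.42 to 11.7 FPKM. Zfp genes lie in clusters of similar copies, between which reads can be split, so the value of a single gene is uncertain.

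**Figure D3:**
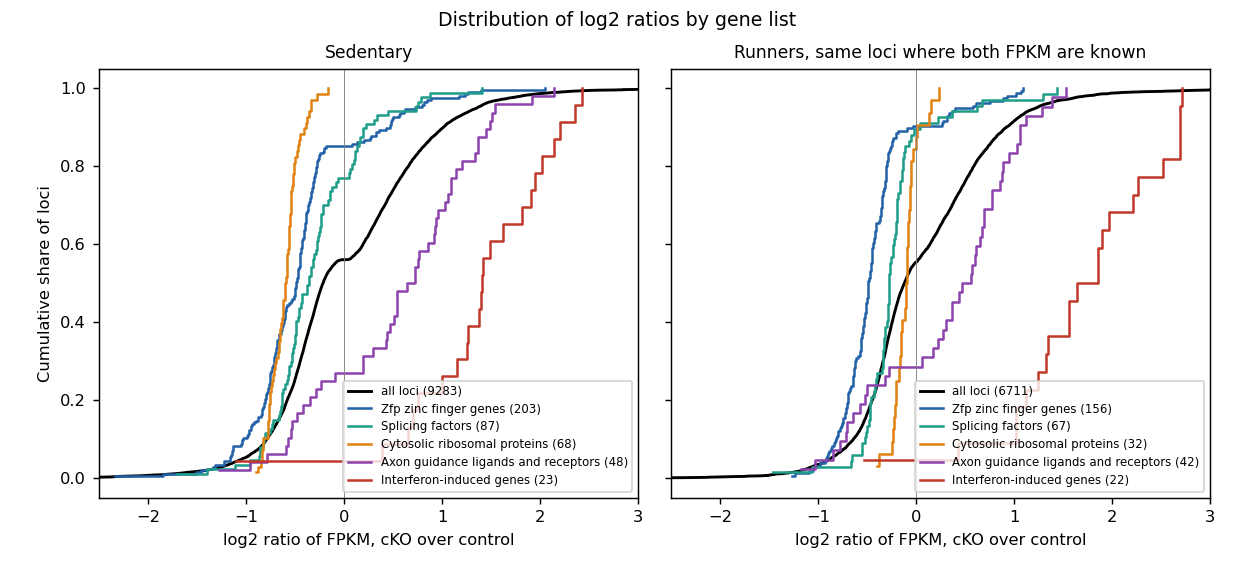
Cumulative share of loci (vertical) against log2 ratio of FPKM, cKO over control (horizontal), for all members and 5 gene lists, in sedentary mice (left) and runners (right, loci with both FPKM values). The Zfp curve lies left of that of all loci in both panels, with medians of -0.49 and -0.48. The ribosomal protein curve has a median of -0.60 for 68 genes in sedentary mice and -0.10 for 32 genes in runners.

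Among other transcription factors, families differed. Of 26 Sox and Fox factors 23 (88.5%) rose and 3 (11.5%) fell, against 43.1% and 54.7% of all members, with a median log2 ratio of 0.84. Their summed level was 169 FPKM in control, and loci of low level rose more often, as given below. Foxp4 went from 10.7 to 27.1 FPKM and Sox6 from 2.099 to 4.34, while Foxn2 fell from 13.9 to 7.75. Homeobox factors split into 21 higher and 12 lower, with 5 of them at least 2-fold higher and 5 at least 2-fold lower. The increases of that size included low genes such as Lmx1b (0.122 to 1.03 FPKM, log2 3.08), while those at 2 FPKM or more in a group that changed most were decreases. Tlx3 had 2.47 FPKM in control and 0.410 in cKO, Barhl2 had 13.2 and 4.57, and Uncx had 7.92 and 2.87. Basic helix-loop-helix factors split into 16 higher and 7 lower of 24, with Hes3 at 15.9 and 41.2 FPKM and Nhlh2 at 6.05 and 1.92. Neurod1, a granule neuron marker, accounted for the largest decrease of that family, with 270.1 and 37.8 FPKM. Nuclear receptors numbered 13 higher and 7 lower in sedentary mice, and 8 and 8 in runners, where 4 were not called or not listed. Rxra, the shared partner of many of these receptors, rose from 2.82 to 6.98 FPKM.

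Listed genes induced by neuronal activity were lower in the main, with 12 of 16 (75%) lower and 4 (25%) higher (median log2 -0.45). Of all members, 54.7% were lower and 43.1% higher. Another 10 of the 26 activity genes found in any table of the series were not listed for sedentary mice. Dusp5, a phosphatase that restrains ERK signalling, had 40.4 FPKM in control and 12.5 in cKO. Bdnf, the neurotrophin, had 5.09 and 2.33 FPKM. Jun, an AP-1 subunit, had 31.1 and 16.1 FPKM. Ier5 went the other way, from 5.01 to 7.48 FPKM. In runners 10 of the 16 fell, 1 rose and 5 were not called or not listed.

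RNA processing genes were lower as well. Of 87 splicing factors 67 fell and 19 rose (median log2 -0.36), and relative to the median of all members the split was 59 to 27. In runners 59 fell and 7 rose. Rbfox3, known as the neuronal marker NeuN, had 79.6 FPKM in control and 24.4 in cKO, and its paralogue Rbfox1 had 110.5 and 51.2. Celf6 rose, from 2.29 to 6.05 FPKM. Among 45 translation factors 35 fell and 10 rose, or 29 and 16 relative to the median, and Eif3h went from 108.2 to 67.8 FPKM.

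Ribosomal, proteasome and mitochondrial genes fell together in sedentary mice. The median length of their longest transcripts was 1046 bases for cytosolic ribosomal, 1186 for respiratory chain, 1581 for proteasome and 2317 for mitochondrial ribosomal genes. None of 68 cytosolic ribosomal protein genes rose and 67 fell, with a median log2 ratio of -0.60. In runners 18 of these genes fell, 2 rose and 48 were not called or not listed. Their retrotransposed copies share sequence with them, so single values are uncertain. Of 25 proteasome subunits 23 fell and 1 rose, with Psma7 at 82.3 and 49.3 FPKM. The runner split was 6 lower and 1 higher, with 18 not called or not listed. All but 1 of 43 mitochondrial ribosomal protein genes fell, and none rose. In runners 9 of them fell, none rose and 34 were not called or not listed. Of all members, 38% fell and 30.5% rose in runners. Respiratory chain genes encoded in the nucleus numbered 61 lower and 2 higher of 66, with Ndufs7 of complex I at 105.2 and 64.5 FPKM, but centred on loci of like length the split was 31 lower and 32 higher. For the ribosomal, proteasome and mitochondrial ribosomal lists, length centring left 55, 16 and 28 lower and 12, 8 and 14 higher. Whether the sedentary and runner results differ was not tested.

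Smaller metabolic lists depended on the centring. Tricarboxylic acid cycle genes numbered 12 lower and 4 higher, but 5 and 11 centred on loci of like length. Glycolysis genes numbered 13 lower and 5 higher, but 7 and 11 relative to the median of all members and 5 and 13 centred on length. Pfkfb3, which makes the activator of phosphofructokinase, rose from 9.05 to 22.7 FPKM, and Aldoa, an aldolase, went from 739.8 to 551.4. Cholesterol genes numbered 12 lower and 5 higher, but 7 and 10 relative to the median. Srebf1, a regulator of lipid synthesis, rose from 17.96 to 36.6 FPKM.

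**Figure D4:**
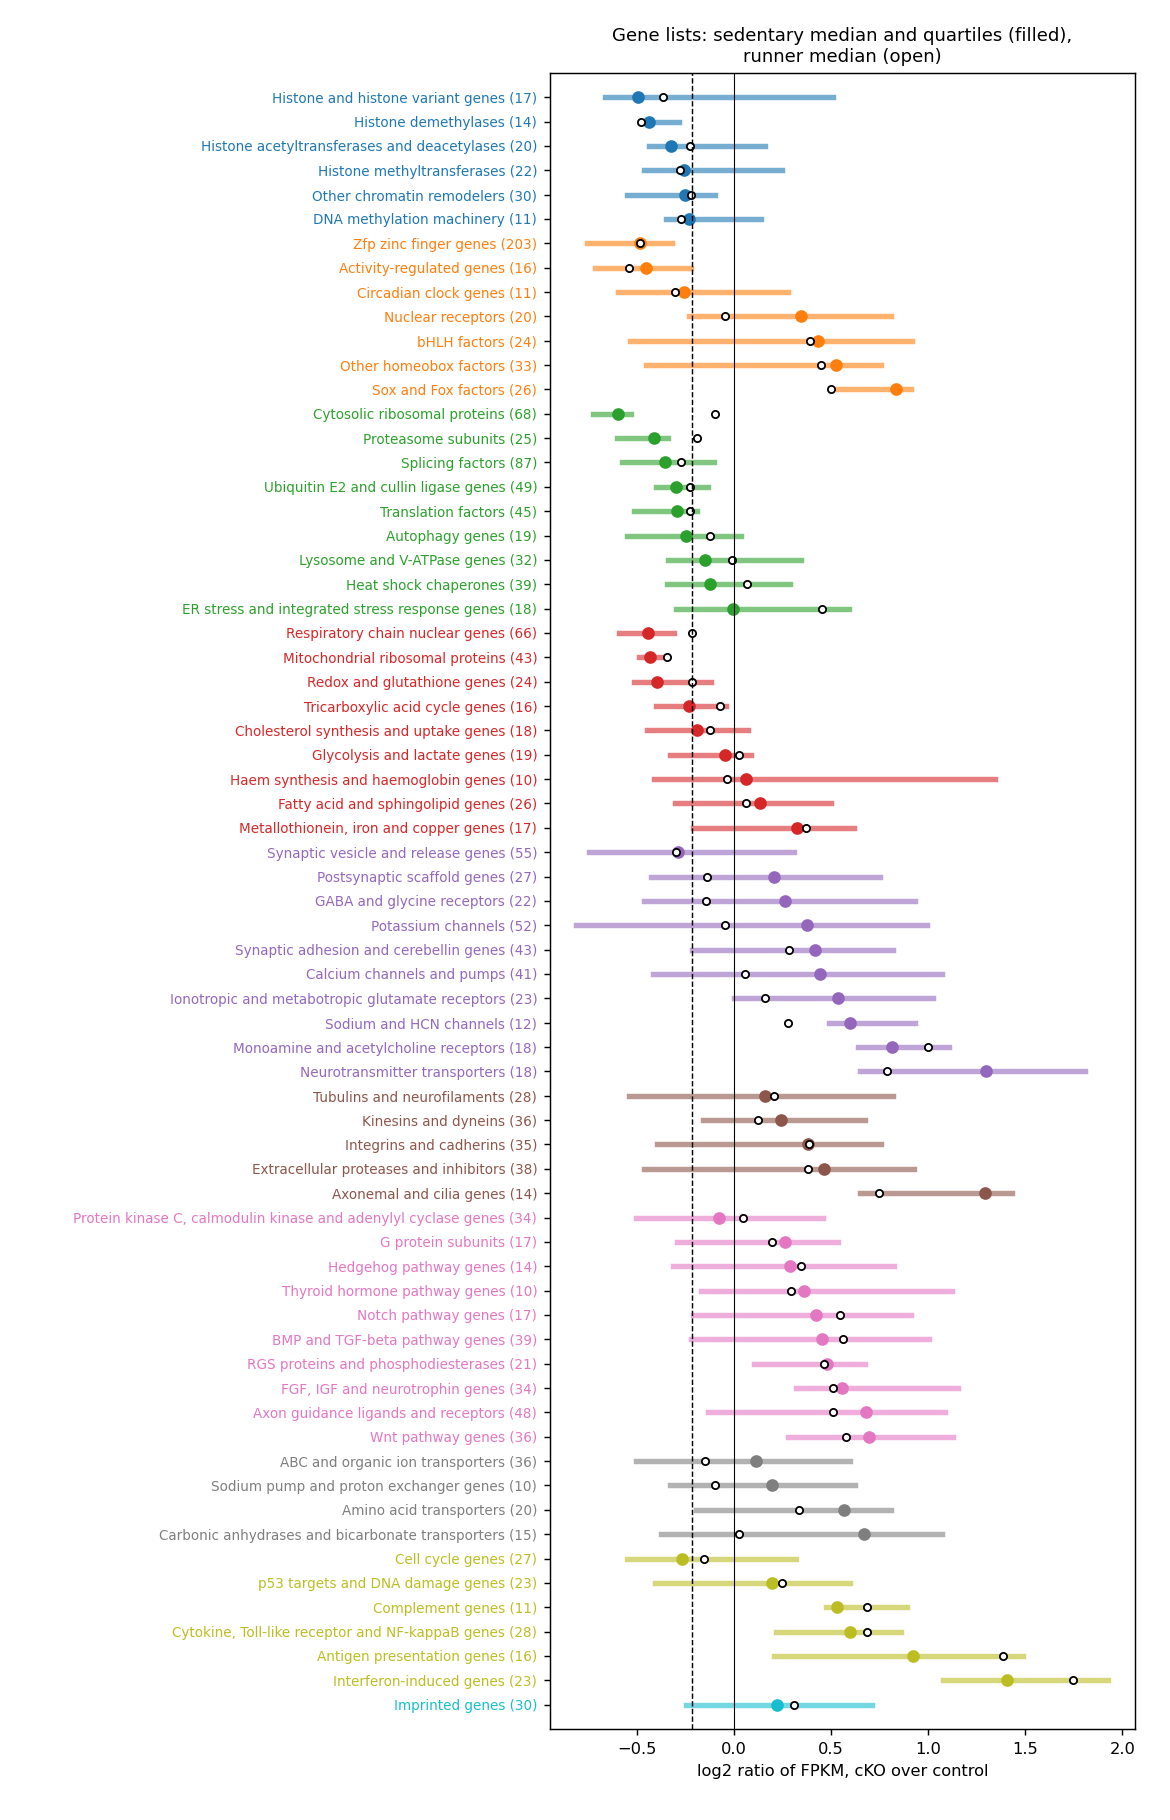
Median (filled circle) and quartiles (bar) of the log2 ratio of FPKM, cKO over control in sedentary mice, for each gene list with at least 10 members other than the cell type markers, with the runner median as an open circle, the number of sedentary members in parentheses and colours for groups of related lists. The dashed line marks the median of all members at -0.21. Zfp, splicing and ribosomal lists lie to its left, and among the lists drawn, interferon-induced genes and neurotransmitter transporters have the highest medians, 1.41 and 1.30.

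Genes of the synapse and of excitability moved both ways. Of 55 synaptic vesicle and release genes 35 fell and 20 rose, and 36 fell in runners. Synpr, a vesicle membrane protein, had 65.5 FPKM in control and 19.4 in cKO, and Sv2b had 73.3 and 29.4. Its paralogue Sv2c rose, from 6.28 to 22.0 FPKM. The secreted synapse organizers Cbln1 and Cbln3 fell from 288.6 to 74.9 FPKM and from 265.9 to 75.8, while 28 of the 43 genes of synaptic adhesion rose. Postsynaptic scaffold genes split into 17 higher and 10 lower, and Shank1 went from 11.2 to 37.2 FPKM in sedentary mice and from 22.5 to 30.005 in runners.

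Calcium channel and pump genes held 27 higher and 14 lower of 41, and all 12 that changed by at least 2-fold were higher. Their summed FPKM was 1292 in control and 2521 in cKO, to which Itpr1, a Purkinje cell marker, contributed 360.1 and 960.4. Cacna1g, the T-type channel subunit, had 27.6 and 82.6 FPKM, and the auxiliary subunit Cacna2d2 had 22.7 and 69.5. In runners the list split into 16 higher and 17 lower, with 8 not called or not listed. Potassium channels numbered 33 higher and 19 lower of 52 in sedentary mice. In runners they numbered 21 and 22, with 9 not called or not listed. Of all members, 43.1% rose and 54.7% fell in sedentary mice, and 30.5% and 38% in runners. Whether the 2 activities differ was not tested. Kcnj12, an inward rectifier, fell from 22.1 to 7.18 FPKM and Kcnq5, an M-current channel, rose from 0.575 to 2.17. Sodium and HCN channels numbered 10 higher and 2 lower, with the pacemaker channel Hcn4 at 1.05 and 4.08 FPKM.

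Receptors for glutamate numbered 17 higher and 6 lower, yet the most abundant among those named fell. Grm4, the presynaptic metabotropic receptor of granule neurons, had 130.1 FPKM in control and 40.5 in cKO, and Grin2c, an NMDA receptor subunit, had 53.3 and 20.4. GABA and glycine receptors split into 11 higher and 10 lower, and into 10 and 11 centred on loci of like length. Gabrd, an extrasynaptic GABA-A receptor subunit, fell from 90.1 to 19.9 FPKM. Of 18 monoamine and acetylcholine receptors 16 rose and 1 fell, and 17 rose in runners. Htr1b, a serotonin receptor, had 4.505 and 10.3 FPKM. Neurotransmitter transporters numbered 15 higher and 3 lower of 18. The steepest increases there began under 1 FPKM, as for Slc6a2, the noradrenaline transporter, from 0.197 to 3.86 FPKM. Slc18a2, the vesicular monoamine transporter, went from 3.62 to 12.3 FPKM, and Slc6a4, the serotonin transporter, from 2.60 to 12.3. These transporters are made by brainstem neurons. The hindbrain and midbrain marker list given above has the same largest log2 ratio as the transporter list, 5.67. The lists thus overlap, and the rise of the markers is no separate observation. The part of these neurons in the transporter result was not tested.

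Pathways that pattern the developing brain were higher in the main. Axon guidance ligands and receptors numbered 35 higher and 13 lower of 48, with 15 at least 2-fold higher and 1 at least 2-fold lower, and 28 rose and 12 fell in runners. Among the ligands, Sema3b had 1.18 and 5.18 FPKM, and Slit2 had 1.14 and 4.27. Of the Eph receptors, Epha3 fell from 5.11 to 2.11 FPKM while Ephb3 rose from 0.995 to 2.89. Wnt pathway genes split into 28 higher and 8 lower, with the receptor Fzd10 at 0.344 and 2.50 FPKM and the co-receptor Lrp5 at 1.46 and 4.22. The ligand Wnt7a went the other way, from 26.8 to 5.88 FPKM in sedentary mice and from 30.9 to 8.58 in runners.

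Other signalling pathways held large changes in either direction. Notch1, Notch2 and Notch3 rose from 2.67, 2.12 and 2.11 FPKM to 5.84, 4.86 and 5.42, within a list of 17 genes that split into 8 higher and 7 lower. In the Hedgehog pathway, 9 of 14 genes rose and 5 fell, or 7 and 7 centred on loci of like length. The transducer Smo went from 7.55 to 16.2 FPKM, and Gli2 and Gli3, the transcription factors at the end of the pathway, from 1.08 to 2.49 and from 0.901 to 2.48, while the co-receptor Boc fell from 23.7 to 9.81. Genes of BMP and TGF-beta signalling numbered 27 higher and 11 lower of 39. Of the BMP antagonists, Nog rose from 2.56 to 10.8 FPKM and Chrd fell from 8.59 to 3.67. Among growth factor genes 28 of 34 rose and 6 fell. Igfbp7, an IGF-binding protein, had 12.4 and 43.6 FPKM, and Ntf3, the gene of neurotrophin-3, fell from 5.51 to 0.724.

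Second messenger genes changed both ways. Protein kinase C, calmodulin kinase and adenylyl cyclase genes split evenly into 17 higher and 17 lower. The calcium-sensitive cyclase Adcy1 had 134.9 FPKM in control and 57.1 in cKO, and the kinase Camk4 had 50.6 and 22.6. In runners Adcy1 had 215.1 and 71.9 FPKM. Regulators of G protein signalling and phosphodiesterases numbered 16 higher and 5 lower, and Pde5a went from 13.8 to 31.7 FPKM.

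Immune genes were mostly higher. Of 23 interferon-induced genes 22 rose and 1 fell, 17 of them at least 2-fold higher, and 21 rose and 1 fell in runners. Their levels were low throughout, with a summed FPKM of 67.4 in control and 119 in cKO. Irf7, the transcription factor that amplifies the interferon response, had 0.912 FPKM in control and 4.03 in cKO. Isg15, a ubiquitin-like modifier, had 0.573 and 2.65 FPKM (q = 0.0114), with a standard error of 1.06 on its log2 ratio of 2.21 by the calculation used for Smarca5. Stat2, a subunit of the factor that interferon activates, was the exception, with 22.8 and 10.6 FPKM. Microglia markers rose with these genes, as given above.

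To show what lies upstream of these genes, the 250 bases before each annotated start were read from RefSeq (GRCm38.p6) for 6670 members, of 27025 genes in that table. The interferon-stimulated response element was searched on both strands as TTTC and TTTC with any 2 bases between them, and 9 of the 18 interferon-induced genes with a sequence (50%) held it, against 3.133% of members and 3.463% of all genes. The windows below are 30 bases long on the strand of the gene, with the match in capitals. Isg15 lies on the minus strand (chr4:156200865-156200894), Bst2 on the minus strand (chr8:71537577-71537606), Ifit1 on the plus strand (chr19:34640794-34640823), Ifit3 on the plus strand (chr19:34583397-34583426) and Stat2 on the plus strand (chr10:128270266-128270295).
Isg15: aaaggaaaccGAAACAGAAAatagctctgg
Bst2: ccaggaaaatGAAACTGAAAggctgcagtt
Ifit1: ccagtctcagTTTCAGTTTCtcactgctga
Ifit3: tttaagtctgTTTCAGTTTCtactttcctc
Stat2: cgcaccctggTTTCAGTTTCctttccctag
In Ifit1, Ifit3 and Stat2 the matched letters are the same, and Isg15 and Bst2 hold the element on the other strand. Ifit1, Bst2 and Ifit3 rose, with log2 ratios of 1.95, 2.01 and 0.999, while Stat2 fell, with -1.11. A match is a string of letters and does not show a bound site.

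Other immune lists rose as well. Of 11 complement genes 10 rose and 1 fell. C4b had 2.33 FPKM in control and 13.2 in cKO sedentary, and 2.38 and 13.7 in runners. C3 had 0.252 and 2.53 FPKM. Antigen presentation genes numbered 13 higher and 3 lower, among which H2-T23 rose from 2.86 to 10.9 FPKM while H2-T10 fell from 3.08 to 0.611. These genes are near-identical copies and differ between strains, so single values are uncertain. Il33, an alarmin made by glia, rose from 11.2 to 50.3 FPKM in sedentary mice and from 11.8 to 50.8 in runners, and Il16 fell from 41.0 to 10.52. The joined locus of the haemoglobin genes Hbb-b1 and Hbb-b2 had 7.502 and 36.2 FPKM in sedentary mice. In runners it had 10.6 and 10.04 FPKM and was not listed in the comparison of genotype.

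Among noncoding RNAs, Neat1, the scaffold of nuclear paraspeckles, rose from 22.6 to 78.2 FPKM in sedentary mice and from 18.4 to 67.8 in runners. Miat rose from 3.80 to 11.5 FPKM. In both genes, both cKO groups lay above both control groups. Dlk1, an imprinted gene for a Notch-related membrane protein, went from 1.96 to 10.9 FPKM, and Mkrn3, an imprinted zinc finger gene, from 3.23 to 1.28. The imprinted genes as a whole split into 17 higher and 13 lower.

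The direction of change differed with the level and size of the gene. Among 1531 members with a mean of under 3 FPKM, 71.7% rose, against 34.2%, 33.4% and 26.1% of those from 10 to 30, 30 to 100 and 100 to 300 FPKM. The share was 35.1% of the 94 members at 300 FPKM or more, above that of the class before it. Members of low level had to reach 1 FPKM in a group and be listed, so those with a small difference are missing there. By genomic span, 25.9% of the 777 members under 5000 bases rose, and 71.1% of the 256 members of 400000 bases or more. The share increased from class to class between these ends. In runners the counts were 163 higher and 258 lower in the shortest class and 121 and 83 in the longest. Across chromosomes the share of members that rose was between 37.9% (chromosome 8) and 53.1% (chromosome 1), leaving out the Y chromosome with its 3 members.

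**Figure D5:**
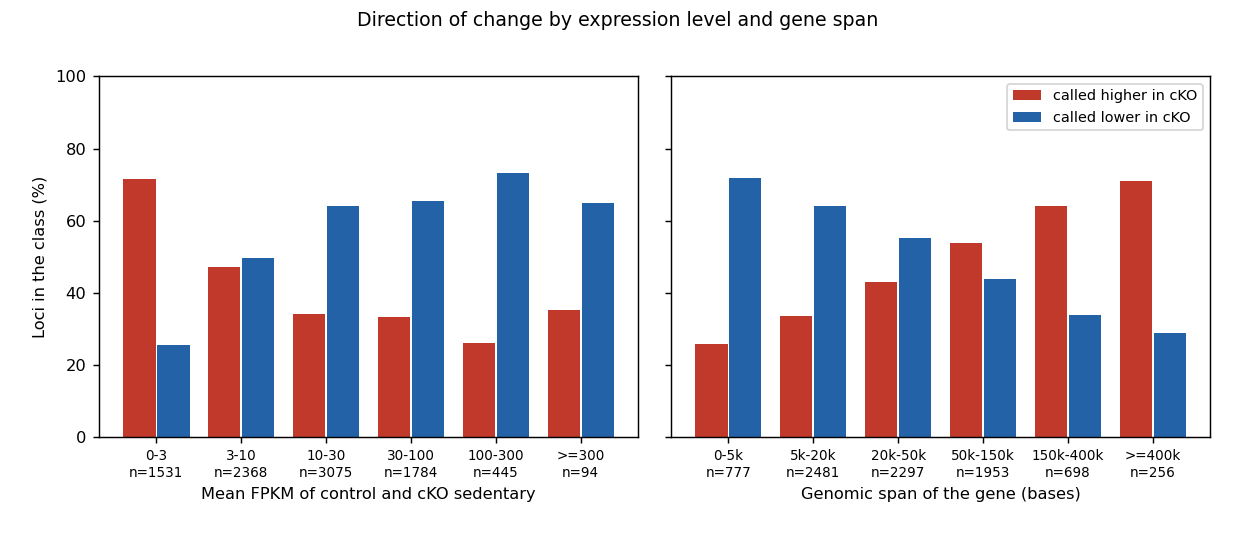
Share of members called higher (red) and lower (blue) in the cKO in classes of mean FPKM (left) and genomic span (right), with the number of members in each class under its bars. The share of higher loci is 71.7% in the lowest class of level, 26.1% from 100 to 300 FPKM and 35.1% above, and rises from 25.9% to 71.1% between the shortest and longest spans.

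Upstream sequences differed in composition between loci of small and large change. The median ratio of observed to expected CpG dinucleotides in the 250 bases was 0.760 for members that fell by less than 2-fold, 0.707 for those that rose by less than 2-fold, 0.577 for those at least 2-fold higher and 0.576 for those at least 2-fold lower. The ETS element, searched as CCGGAAGT on both strands, was held by 8.42% of members that fell by less than 2-fold, 3.44% of those that rose by less than 2-fold, 1.529% of those at least 2-fold higher and 2.913% of those at least 2-fold lower, against 5.862% of all members and 3.23% of all genes. The cAMP response element TGACGTCA was held by 3.822% of the small decreases, 2.807% of the small increases, 1.682% of the large increases and 1.942% of the large decreases, against 3.178% of all members, and by 2 of 13 activity-regulated genes, Btg2 and Dusp1. The short core of that element, TGACG, was held by 9 of these 13 genes (69.23%), against 30.42% of members. Genes that rose and genes that fell were both among the 9. Other lists had like shares, such as heat shock chaperones (22 of 30, 73.33%) and hindbrain and midbrain markers (9 of 15, 60%), so the core was not particular to activity-regulated genes. An E-box (CAGCTG) was held by 13.26% of the small decreases, 16.66% of the small increases, 14.98% of the large increases and 14.24% of the large decreases.

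The runner groups gave a second measurement of the same genotypes. Of the 6301 members called in both comparisons, 5940 (94.3%) had the same direction. Of the 961 loci at least 2-fold higher in sedentary mice, 846 rose and 5 fell in runners, and 110 were not called or not listed there. The median log2 ratio of the 961 was 1.35 in sedentary mice and 0.98 in runners. Of the 499 loci at least 2-fold lower, 438 fell, 3 rose and 58 were not called or not listed, with medians of -1.29 and -0.94. The loci were chosen for a large ratio in sedentary mice, and such a choice tends to make a second value smaller. Over members called in both comparisons, without that choice, the median absolute log2 ratio was 0.59 in sedentary mice and 0.44 in runners. The difference between activities was not tested.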

How the data were processed

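Group values were taken as the authors deposited them. Per the file headers, each of the 4 tables is Cuffdiff output for a pair of groups, with 1 FPKM per group and locus. Reads were processed with Cuffdiff, Cufflinks 2.1.1 and TopHat2 2.0.8b (TopHat is named too) on build mm10, per the submitters' processing notes. The deposited test statistic is used as a score, and the p-value and q-value are the authors' own, per the file headers. No test over libraries was possible. All 13151 FPKM values that occur in 2 tables were identical.

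The log2 ratio was recomputed from the deposited FPKM without a pseudocount. It differed from the deposited log2 by over 0.01 for 18 of 9283 loci, never in sign. Loci that join several symbols (623) were kept in counts of loci, and list members were matched by symbol in GENCODE M21. The scripts (Python 3.11.15, pandas 2.3.3, numpy 2.4.6, matplotlib 3.10.9) were tested on simulated data.

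The members, the 83 gene lists (2 without a member) and the alternatives were chosen with earlier results of these data known. Genes were named by rule: ISWI subunits and sex-linked genes, the 12 largest log2 increases and decreases at 10 FPKM or more, the 10 largest changes in FPKM each way, up to 4 called members of a list with the largest change at 2 FPKM or more, and the largest change against the list's majority. A few others (Bst2, Btg2, Ifit1, Ifit3 for their upstream sequences, Lmx1b for its size) were chosen after their values were seen. Bulk values rest on 2 libraries a group, and the sources used here do not give their depth. Some genes that the rule names are not reported here.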

Additional observations from a re-analysis of the deposited data

How the results depend on the processing

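Of the 4 counts over all loci, those of loci that rose (4007) and fell (5087) stayed within 1.5 times under every alternative run: a minimum of 5 FPKM, no minimum, a q below 0.01, a pseudocount of 1 FPKM, joined loci left out, and centring on the median of members or on loci of like transcript length. Loci at least 2-fold higher (961) numbered 369 with a minimum of 5 FPKM, 372 with a pseudocount of 1 FPKM and 1457 centred on the median. Those at least 2-fold lower (499) numbered 300 centred on the median. Of 81 gene lists with members, 4 changed their majority direction with median centring and 7 with length centring. Centred on loci of like length, Aldoa had a log2 ratio of 0.032 and Jhdm1d one of -0.24, each of the opposite sign. Leaving out a library could not be run, since each group has 1 deposited value. No paired analysis was possible because the tables hold group values and no value for each library.

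Values of low loci are sensitive to the minimum and the pseudocount, and depth, which would set their error, is unknown. The standard errors come from the deposited statistic and cover what Cuffdiff modelled from 2 libraries a group.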
